A study of Mus musculus with 6 samples.

Results

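Subunits of respiratory complexes II, III, IV and V were described in mouse splenic B cells, with and without HIF-1α, that had been cultured to switch to IgA. All protein-coding genes whose symbols name a subunit of these complexes (the *Sdh* genes, *Uqcr* genes and *Cyc1*, the *Cox4* to *Cox8* genes, the *Atp5* genes, and the cytochrome b, cytochrome oxidase and ATP synthase genes of the mitochondrial DNA) were taken by symbol alone, and *Atp5s* and *Cox7a2l*, which match by name without being subunits, were left out. This gave 52 of the 46983 genes listed. Complex II had 4 of them, complex III had 10, complex IV had 20 and complex V had 18, and 6 of the 52 are encoded in the mitochondrial DNA (mtDNA). The 6 RNA-seq libraries came from 3 wild-type (WT) and 3 *Hif1a* KO samples. In the *Hif1a* KO, floxed *Hif1a* alleles are deleted by cre recombinase driven from Mb1 (*Cd79a*), which is active in the B lineage from early stages on. The study kept its mice on a C57BL/6 background. The WT mice were littermates that carried cre and a single floxed allele, or floxed alleles without cre, and the labels do not tell these apart, so that a heterozygous deletion cannot be told from an intact gene among the controls. Follicular B cells were sorted from the spleen by the study, and all libraries shared the culture, of 3 days with 5 μg/ml LPS plus TGF-β, IL-5 and BAFF (10 ng/ml of each). The labels do not say whether the 3 samples of a group came from separate mice, so p-values measure the spread between these samples, which may be technical.

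Complexes I to IV of the inner mitochondrial membrane pass electrons from NADH and succinate to oxygen, and complexes I, III and IV pump protons that complex V, the ATP synthase, lets back to make ATP. Complex II is built from nuclear genes alone and is also the succinate dehydrogenase of the TCA cycle, while complexes III, IV and V join subunits from the nuclear genome with subunits from the mtDNA, whose genes are transcribed together as long precursors. HIF-1α, the oxygen-regulated transcription factor, is known for inducing glycolysis and for lowering mitochondrial respiration, in some cells by exchanging an isoform of complex IV.

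The values were FPKM, fragments scaled by gene length and by the library's reads, and the 6 libraries rested on 25030210 to 37222477 counted reads. *Hif1a* (chromosome 12), given as 1 value for the whole gene, was at 36.5, 49.8 and 45.8 FPKM in WT and at 46.5, 45.6 and 52.8 in KO, and the groups overlapped. Loss of the floxed part alone cannot be read from a whole-gene value, which therefore checks no label. Summed markers of B cells ranged from 2867 to 3889 FPKM in all libraries summed plasma cell markers were at 1281, 834 and 791 FPKM in WT and 902 to 1581 FPKM in KO, and T cell markers stayed at or below 1.68 FPKM. WT replicate 1 stood apart from the other WT libraries. It alone had neutrophil markers at 35.8 summed FPKM, against at most 0.442 elsewhere, and leaving it out changed the number of genes called between KO and WT from 0 to 1251 of 13312 (9.4%).

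No subunit passed the test between *Hif1a* KO and WT. Of the 52 members, 48 reached the mean of 0.5 FPKM that the test required (limma on log2(FPKM + 1), two-sided, with Benjamini-Hochberg adjustment over all genes tested), and 4 isoform genes of complex IV did not. At an adjusted p under 0.05, 0 of the 48 members were called, where 0 of 13312 genes were called in all (0%), and the smallest adjusted p of a member was 0.626. At an unadjusted p under 0.05 there were 2 members (*Cox6a2* and *Cox6b2*, both with lower values in KO), against 6.98% of all genes tested. On whole reads recovered from the FPKM, limma's voom called 0 genes and gave 1 member with an unadjusted p under 0.05. The 3 KO values lay all on 1 side of the 3 WT values for 3 members (*Uqcrc1*, *Cox6a2* and *Atp5f1*), against 10.1% of all genes. For these 3 the KO values were the lower ones, a pattern of 6.03% of all genes, and no member had all KO values above all WT values, as 4.06% of all genes had. With 3 against 3 samples, 0.1 is the smallest two-sided p of an exact permutation test.

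Differences between the groups were small for most members. The absolute log2 fold change had a median of 0.06 over the 48 members and 0.10 over all 13312 genes, and it was under 0.1 for 32 members (66.7%) and for 49.0% of all genes. For 39 members the 95% confidence interval of the log2 fold change lay within ±0.5, and for 45 within ±1, so changes larger than these bounds were outside the interval for those genes. The SD between replicates on the log2 scale had a median of 0.09 over the members and 0.13 over all genes, which were not matched to the members in level. The median log2 fold change (KO minus WT) was −0.03 over the members and −0.03 over all genes tested. By complex it was −0.01 for complex II, −0.03 for complex III, −0.06 for complex IV and −0.01 for complex V. Scaling by median ratios moved the median of all genes to 0.00 and that of the members to 0.01, so that the side of zero on which the members' median lay depended on the scaling.

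**Figure D1:**
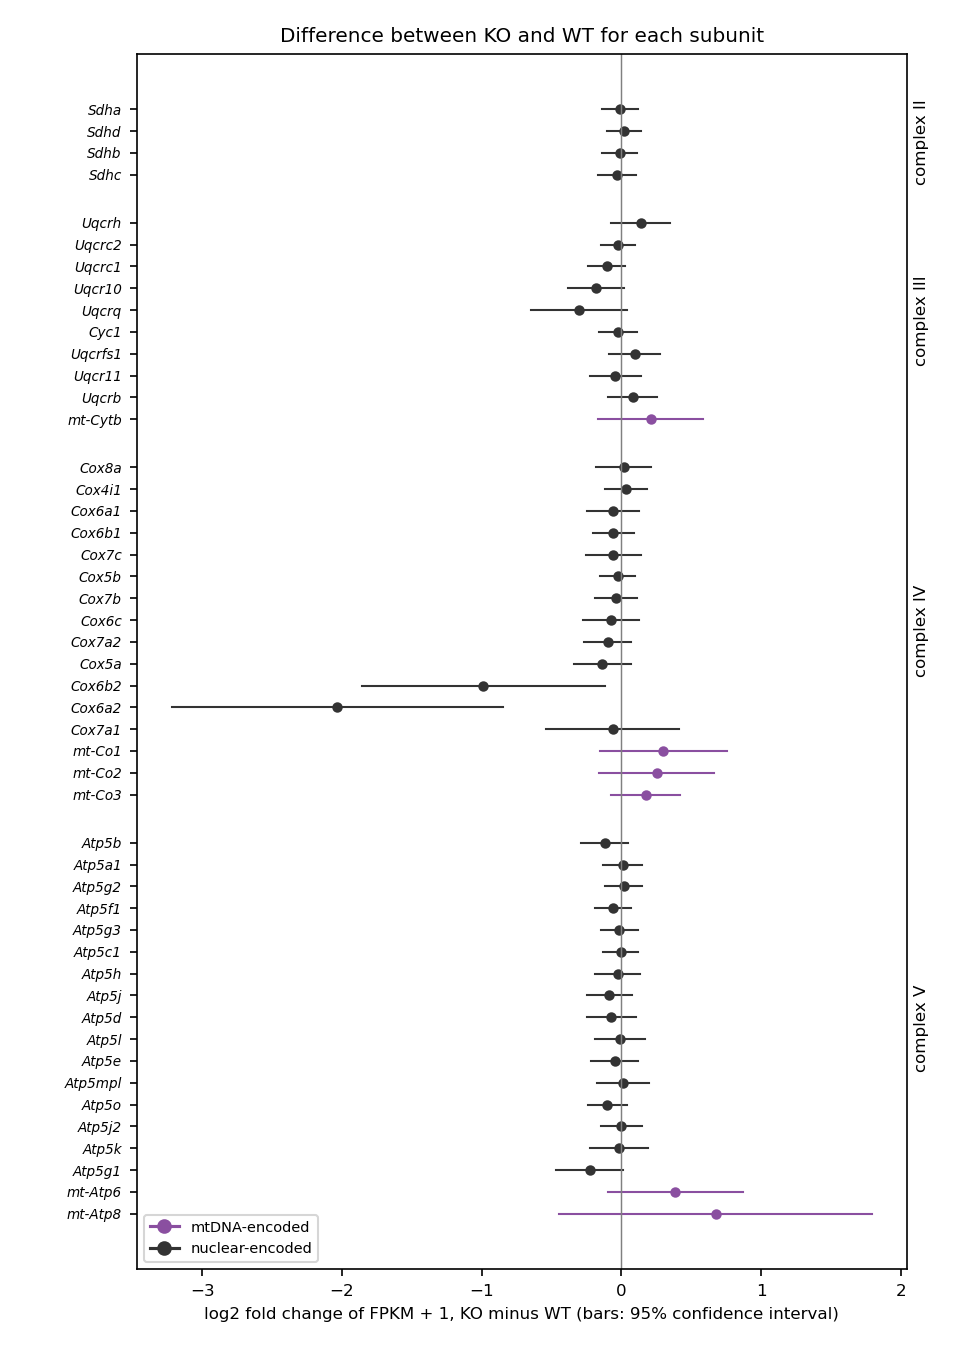
Log2 fold change of FPKM + 1 (KO minus WT, x axis) of the 48 members tested, by complex, with points for the fitted value and bars for the 95% confidence interval. All nuclear-encoded members except *Cox6a2* and *Cox6b2* have intervals that include 0, and the 6 mtDNA-encoded members lie between 0.17 and 0.67 with intervals that include 0.

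The levels of the subunits spanned more than 3 orders of magnitude with the values of each library shown in the plot of levels. The highest mean FPKM over the 6 libraries were those of *mt-Co1* at 4112, *mt-Cytb* at 2025, *Atp5b* at 1408, *Atp5a1* at 649, *Cox8a* at 442 and *Sdha* at 401. These levels depend on the gene length that the FPKM were divided by, which for most genes was the mean over all annotated transcripts, short ones included. For 11 of the 48 members the principal transcript is over 1.5 times longer than the length used. For *Sdha*, 747 bp was used where the principal transcript has 2900 bp. Per length of the principal transcript, its mean level was 103 FPKM, close to *Sdhd* at 92.2 and *Sdhb* at 81.6. On that scale *Sdhc*, the remaining gene of complex II, was at 28.5 FPKM. Ratios of FPKM between libraries do not depend on the length used. The fitted log2 fold changes are of FPKM + 1 and do depend on it for genes with low values.

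**Figure D2:**
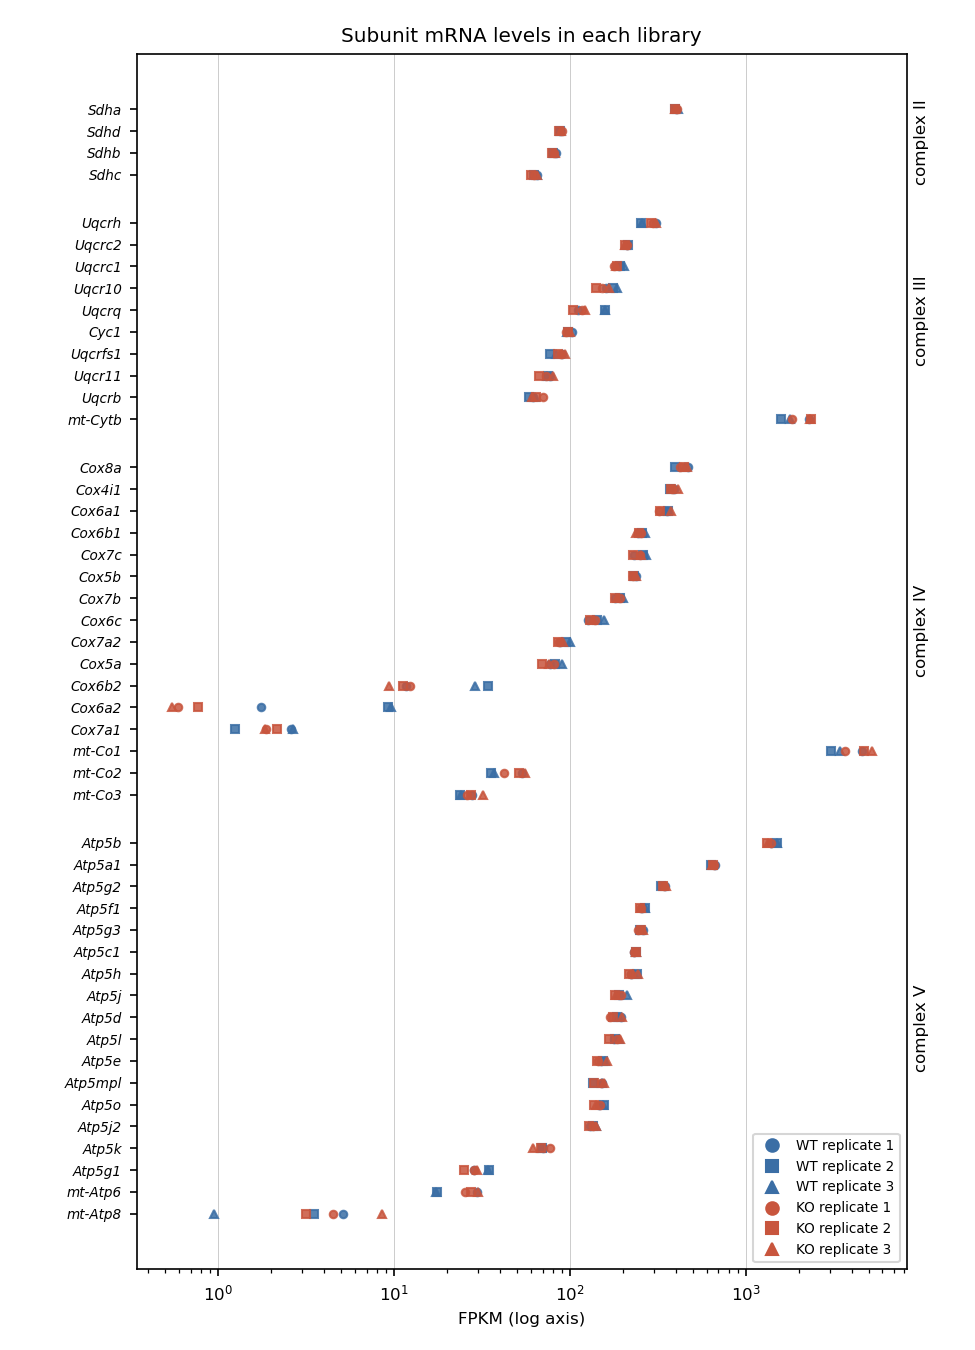
FPKM (x axis, log scale) of the 48 members tested, by complex, with a point for each library (WT in blue, KO in red, symbols for replicates 1 to 3). Points of a gene nearly coincide for most nuclear-encoded members, whereas *Cox6a2*, *Cox6b2* and *mt-Atp8* spread widely between libraries.

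Complex II, the succinate dehydrogenase, varied little between libraries. *Sdha*, the flavoprotein that oxidizes succinate, was at 400.5, 395 and 412 FPKM in WT and at 408, 394 and 396 FPKM in KO. *Sdhb*, its iron-sulfur partner, was at 83.3, 80.5 and 81.3 FPKM in WT and at 81.4, 78.9 and 82.6 FPKM in KO. The groups overlapped for both. The membrane anchors *Sdhc* and *Sdhd* were at 62.1 to 65.1 and 87.4 to 87.7 FPKM in WT and at 60.3 to 64.8 and 87.1 to 89.99 FPKM in KO. The fitted log2 fold changes of the 4 genes lay between −0.03 (*Sdhc*, SE 0.06) and 0.02 (*Sdhd*, SE 0.05), and all 4 had 95% intervals within ±0.5, the widest being that of *Sdhc* from −0.17 to 0.11.

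Complex III takes electrons from ubiquinol to cytochrome c, and the values of its catalytic subunits overlapped between groups. *Cyc1*, the cytochrome c1, was at 103, 98.0 and 96.3 FPKM in WT and 94.6, 97.7 and 99.6 FPKM in KO. *Uqcrfs1*, the Rieske iron-sulfur protein, was at 90.8, 77.2 and 83.6 FPKM in WT and 89.5, 85.3 and 93.8 FPKM in KO. The ranges of the groups overlapped for both genes, and the fitted log2 fold changes were −0.03 (SE 0.06) and 0.09 (SE 0.08). Among the core proteins, *Uqcrc2* was at 209 to 215 FPKM in WT and 206 to 211 FPKM in KO, whereas *Uqcrc1* (chr9:108936633-108949623) was at 191, 193 and 203 FPKM in WT and at 179, 185 and 183 FPKM in KO. All 3 KO values of *Uqcrc1* were below the WT values, by a small margin, and its log2 fold change of −0.11 (SE 0.06, adjusted p = 0.626) was not called.

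The lowest and highest log2 fold changes of nuclear-encoded complex III subunits were those of accessory subunits. *Uqcrq* (chr11:53427922-53430831), a small subunit, was at 112, 158 and 159 FPKM in WT and at 117, 104 and 121 FPKM in KO. WT replicate 1 lay within the KO range and the other WT libraries above it. The fitted log2 difference was −0.30 (SE 0.14, adjusted p = 0.626), and without WT replicate 1 it was −0.47 with an adjusted p of 0.0225. *Uqcrh*, the hinge protein that docks cytochrome c1, had the highest log2 fold change of a nuclear-encoded member, 0.14 (SE 0.09, adjusted p = 0.646), from 308, 253 and 257 FPKM in WT and 297, 289 and 310 FPKM in KO. The 3 other nuclear-encoded subunits (*Uqcr10*, *Uqcr11* and *Uqcrb*) had mean levels from 63.3 to 164 FPKM and log2 fold changes from −0.18 to 0.08.

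Complex IV, cytochrome c oxidase, has nuclear-encoded subunits with alternative isoforms, and these isoforms held the only members with an unadjusted p under 0.05. The widely expressed isoforms dominated every family in every library. *Cox4i1*, the regulatory subunit with the binding site for ATP, was at 392, 371 and 378 FPKM in WT and 379, 376 and 413 FPKM in KO and made up at least 99.9% of the summed FPKM of *Cox4i1* and *Cox4i2*. *Cox4i2*, the isoform known to be induced by HIF-1α in other cells, rested on 0 to 5 reads a library and was not tested. *Cox8a* was at 470.1, 396 and 453 FPKM in WT and 423, 446 and 463 FPKM in KO, with log2 fold change 0.02 (SE 0.08). *Cox7b* was at 180 to 200 FPKM in all 6 libraries. *Cox7a2* was at 87.4, 94.6 and 100.4 FPKM in WT and at 86.3, 85.7 and 91.3 FPKM in KO, and its heart and muscle isoform *Cox7a1* was at 1.24 to 2.64 FPKM in WT and 1.84 to 2.16 FPKM in KO, on 14 to 35 reads. Of the testis and muscle isoforms, *Cox7b2* and *Cox8b* had a single read in 1 of the 6 libraries and *Cox8c* had none, and 0 reads allow up to 3 reads, or at most 0.262 FPKM of *Cox8c* in the shallowest library. The 4 other nuclear-encoded subunits (*Cox5a*, *Cox5b*, *Cox6c* and *Cox7c*) had log2 fold changes from −0.14 to −0.03, and the smallest unadjusted p among them was 0.155.

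*Cox6a2* (chr7:128205435-128206387, minus strand) is the heart and skeletal muscle isoform of a regulatory subunit of complex IV. It was at 1.74, 9.26 and 9.57 FPKM in WT and at 0.588, 0.771 and 0.542 FPKM in KO, on 10 to 195 reads a library. No KO value reached the lowest WT value, and WT replicate 1 lay nearer to KO than to the other WT libraries. The KO mean of 0.633 ± 0.121 FPKM was 90.8% below the WT mean of 6.86 ± 4.43 FPKM (SD, n = 3). The log2 fold change of FPKM + 1 was −2.03 (SE 0.50, unadjusted p = 0.00497, adjusted p = 0.626), a scale that understates changes of such low genes, and without WT replicate 1 it was −2.68 with an adjusted p of 0.000639. Over all alternatives the adjusted p of *Cox6a2* ranged from that value to 1. Its share of the summed FPKM of *Cox6a1* and *Cox6a2* was 0.485%, 2.51% and 2.67% in WT and 0.143% to 0.237% in KO. *Cox6a1*, the widely expressed isoform, was at 357, 360 and 349 FPKM in WT and at 322, 325 and 378 FPKM in KO, with a log2 fold change of −0.06 (SE 0.08). In bulk samples, fewer cells of a type and less RNA per cell cannot be told apart.

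Markers of other cells moved with *Cox6a2* in part. The 10 macrophage markers summed to 74.4, 170 and 119 FPKM in WT and to 67.5 to 79.4 FPKM in KO, so that WT replicates 2 and 3 were high for both. Most of that sum was *Adgre1*, at 59.8, 91.1 and 81.1 FPKM in WT and 55.5 to 69.7 FPKM in KO, and *Lyz2* was at 6.17, 58.2 and 26.2 FPKM in WT and 0.5996 to 3.70 FPKM in KO, while *Fcgr1* and *Itgam* stayed at or under 0.236 FPKM. The 6 erythroid markers summed to 3.05, 16.2 and 13.5 FPKM in WT and to 2.91 to 4.73 FPKM in KO. Of the 5 plasmacytoid dendritic cell markers, a list that holds *Cox6a2* itself, the other 4 summed to 43.6, 68.1 and 61.8 FPKM in WT and 34.4 to 51.7 FPKM in KO, mostly from *Bst2*. Among these 4, *Siglech* was at 5.36, 2.77 and 4.50 FPKM in WT and 1.86 to 2.497 FPKM in KO, with WT replicate 1 the highest. *Ccr9* of the same list went the other way from *Cox6a2*, at 6.09, 1.17 and 1.054 FPKM in WT and 5.82, 2.47 and 8.43 FPKM in KO, lowest in WT replicates 2 and 3. The 8 striated muscle markers summed to 1.197 to 1.99 FPKM, nearly all of it *Tnnt3*, and *Myh1*, *Myh4* and *Myl1* were at 0 in every library. The part of macrophage, erythroid and dendritic cell RNA in the values of *Cox6a2* was not tested.

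*Cox6b2* (chr7:4751792-4753094, minus strand) is the testis isoform of the subunit that faces the intermembrane space. It was at 11.6, 34.3 and 29.0 FPKM in WT and at 12.4, 11.3 and 9.39 FPKM in KO, on 133 to 503 reads. WT replicate 1 lay within the KO range, as for *Uqcrq*, and the other WT libraries were above it. Its log2 fold change was −0.99 (SE 0.37, unadjusted p = 0.0311, adjusted p = 0.626), and without WT replicate 1 it was −1.44 with an adjusted p of 0.00483. Its share of the summed FPKM of the *Cox6b* genes was 4.52%, 11.8% and 9.80% in WT and 3.81% to 4.65% in KO. *Cox6b1*, the widely expressed isoform, was at 246, 256 and 267 FPKM in WT and at 254, 247 and 237 FPKM in KO, with a log2 fold change of −0.06 (SE 0.06). The macrophage and erythroid sums given above were higher in WT replicates 2 and 3 here too, and their part in this difference was not tested.

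**Figure D3:**
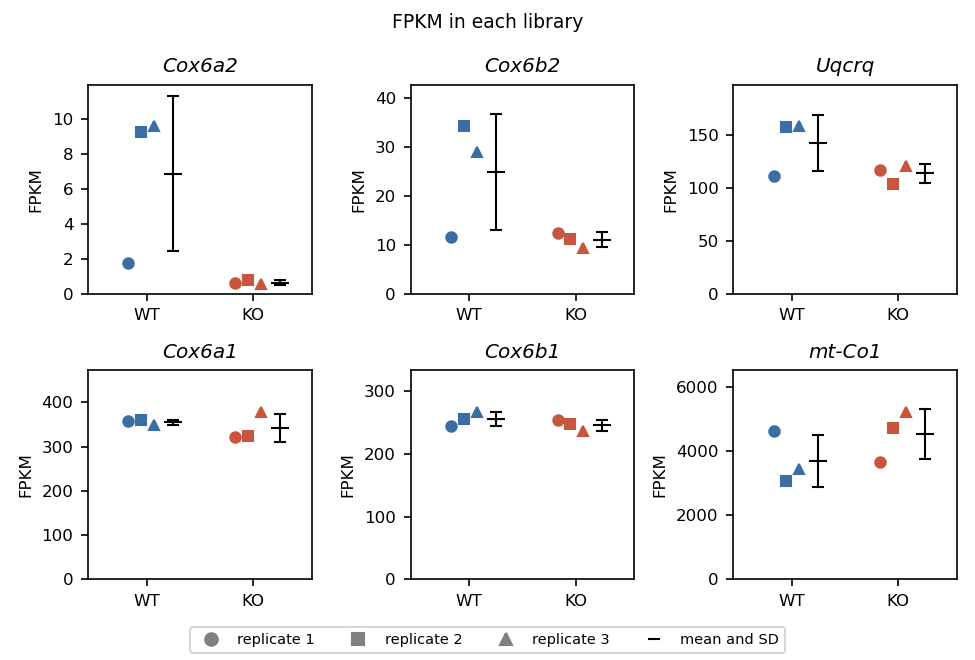
FPKM (y axis, from 0) of 6 members in each library, with symbols for replicates 1 to 3 and bars for the mean and SD of each group (n = 3). For *Cox6a2*, *Cox6b2* and *Uqcrq*, WT replicate 1 lies near or within the KO values and WT replicates 2 and 3 above them, whereas the widely expressed isoforms *Cox6a1* and *Cox6b1* overlap between groups.

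The promoters of the *Cox6b* isoforms are shown because the isoforms differed in level by more than 7-fold in every library. Each runs from 250 bases before to 50 after the start of the gene, 5′ to 3′ in the direction of transcription (RefSeq, GRCm38.p6), and capitals mark a match to the ETS family motif CCGGAAG on either strand. The window of *Cox6b1* is chr7:30626065-30626364 and that of *Cox6b2* is chr7:4753045-4753344, both on the minus strand. The window of *Cox6b1* holds a match, on the opposite strand, and that of *Cox6b2* holds none. In other families of complex IV, *Cox8a* has a match and *Cox8b* has none. *Cox7a2*, *Cox7a1*, *Cox7b* and *Cox7b2*, whose levels also differ within their families, all have none. A link between the match and the level was not tested.
*Cox6b1*: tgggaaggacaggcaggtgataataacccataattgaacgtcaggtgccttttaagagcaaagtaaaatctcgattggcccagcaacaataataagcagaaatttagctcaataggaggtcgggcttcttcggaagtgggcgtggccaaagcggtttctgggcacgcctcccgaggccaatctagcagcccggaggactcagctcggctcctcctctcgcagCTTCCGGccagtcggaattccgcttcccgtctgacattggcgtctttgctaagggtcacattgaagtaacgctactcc
*Cox6b2*: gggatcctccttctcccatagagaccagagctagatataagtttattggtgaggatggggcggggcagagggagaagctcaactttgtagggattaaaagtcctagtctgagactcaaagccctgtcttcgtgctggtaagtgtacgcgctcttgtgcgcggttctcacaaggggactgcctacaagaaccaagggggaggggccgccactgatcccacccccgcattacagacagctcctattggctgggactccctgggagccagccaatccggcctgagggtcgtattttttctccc
Promoters were matched for 34 of the 46 nuclear-encoded members. On either strand, the ETS motif CCGGAAG was in the window of 12 of the 34 members (35.3%) and of 9.9% of 27025 genes, the palindrome GCGCATGCGC of NRF-1 in 4 members (11.8%, *Atp5g2*, *Atp5k*, *Cox6a1* and *Uqcrc1*) and 1.1% of genes, and the YY1 motif AAGATGGC in 3 members (8.8%) and 3.2% of genes. The core CGTG of the HIF motif was in 30 members (88.2%) and in 64.2% of genes, and the members' promoters had a median GC content of 56.3% against 52.7% in all. These are matches of letters and were not tested.

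Complex V, the ATP synthase, was led by the subunits of its catalytic head. *Atp5b*, the catalytic β subunit, was at 1385, 1511 and 1507 FPKM in WT and at 1389, 1321 and 1338 FPKM in KO. WT replicate 1 lay just below the highest KO value, so the groups overlapped, at a log2 fold change of −0.12 (SE 0.07, adjusted p = 0.63). *Atp5a1*, the α subunit, was at 666, 631 and 643 FPKM in WT and at 657, 655 and 640.1 FPKM in KO, and *Atp5c1*, the central γ shaft, was at 232 to 239 FPKM in WT and 232 to 237 FPKM in KO. Their log2 fold changes were 0.01 (SE 0.06) and −0.01 (SE 0.05). *Atp5f1*, the b subunit of the peripheral stalk, was chosen after its values were seen, as a gene without overlap between groups, with 256, 267 and 269 FPKM in WT and 253, 252 and 254 FPKM in KO and a log2 fold change of −0.06 (SE 0.05, adjusted p = 0.701). The 10 other nuclear-encoded subunits outside the c ring, *Atp5f1* among them, had mean levels from 69.2 to 259 FPKM and log2 fold changes from −0.10 to 0.01.

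The c subunit, which forms the rotating membrane ring, comes from 3 genes that make the same mature protein. Translation of their coding sequences gave an identical stretch of 78 residues at the end of all 3 proteins, of 136, 146 and 141 residues in full for *Atp5g1*, *Atp5g2* and *Atp5g3*, while 63 of the 234 bases that encode it differed between at least a pair of the genes. The first 120 of these bases are shown to let a reader see that the genes differ even where their proteins are the same. The proteins differ outside this stretch, where reads can tell the genes apart too. Capitals mark the 33 positions that are not the same in all 3 (GENCODE vM21 transcripts, 5′ to 3′).
*Atp5g1*: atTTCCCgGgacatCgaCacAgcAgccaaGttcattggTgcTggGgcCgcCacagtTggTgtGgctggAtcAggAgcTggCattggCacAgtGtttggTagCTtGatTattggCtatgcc
*Atp5g2*: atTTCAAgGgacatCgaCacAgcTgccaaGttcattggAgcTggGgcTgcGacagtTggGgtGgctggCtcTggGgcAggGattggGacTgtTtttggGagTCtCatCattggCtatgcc
*Atp5g3*: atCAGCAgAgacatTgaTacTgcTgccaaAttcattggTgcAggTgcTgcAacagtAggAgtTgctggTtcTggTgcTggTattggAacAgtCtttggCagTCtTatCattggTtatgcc
*Atp5g2* gave 53.7% to 55.5% of the FPKM of the 3 genes, *Atp5g3* gave 39.9% to 41.0% and *Atp5g1* gave 4.07% to 5.66%, in every library of either group. These shares depend on the length used, 2666 bp for *Atp5g1*, 640 bp for *Atp5g2* and 772 bp for *Atp5g3*. *Atp5g1* had 1889 to 2859 reads a library, *Atp5g2* 5463 to 8312 and *Atp5g3* 4742 to 7473. Per length of the principal transcript, the mean levels were 17.0 FPKM for *Atp5g1*, 299 FPKM for *Atp5g2* and 271 FPKM for *Atp5g3*. *Atp5g2* was at 349, 329 and 342 FPKM in WT and 341, 338 and 351 FPKM in KO, and *Atp5g3* was at 260.1, 249 and 255 FPKM in WT and 245, 252 and 259 FPKM in KO. *Atp5g1*, the isoform with the most tissue-dependent expression, was at 28.6, 34.6 and 34.4 FPKM in WT and at 28.3, 25.1 and 29.6 FPKM in KO. Its log2 fold change of −0.23 (SE 0.10, unadjusted p = 0.0605, adjusted p = 0.626) was the lowest among the nuclear-encoded subunits of complex V, and WT replicate 1 lay within the KO range. Of the 50-base words of the *Atp5g2* transcript, 87.4% also occur in transcripts of other annotated genes, so its level is uncertain by how the authors treated reads that fit several places. For *Atp5g1* the share of such words was 11.6%, so its level is uncertain in part too.

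The 6 mtDNA-encoded members all had higher mean values in KO, and none was called. *mt-Co1*, the catalytic core of complex IV, was at 4611, 3055 and 3425 FPKM in WT and at 3664, 4703 and 5214 FPKM in KO. *mt-Cytb*, the cytochrome b of complex III, was at 2279, 1593 and 1778 FPKM in WT and at 1836, 2341 and 2320 FPKM in KO. For both, WT replicate 1 lay among the KO values and WT replicates 2 and 3 lay below all of them. *mt-Co2*, with the copper site that takes electrons from cytochrome c, was at 53.5, 35.6 and 37.0 FPKM in WT and 42.3, 51.4 and 55.5 FPKM in KO. *mt-Co3* was at 27.8, 23.6 and 24.0 FPKM in WT and 25.9, 27.4 and 32.2 FPKM in KO. *mt-Atp6*, the a subunit through which protons pass, was at 29.7, 17.5 and 17.3 FPKM in WT and 25.3, 27.3 and 29.99 FPKM in KO. *mt-Atp8* was at 5.14, 3.48 and 0.944 FPKM in WT and 4.50, 3.14 and 8.53 FPKM in KO, on 5 to 52 reads, and was the member for which WT replicate 2 did not lie below all KO values.

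The log2 fold changes were 0.30 (SE 0.19) for *mt-Co1*, 0.21 (SE 0.16) for *mt-Cytb*, 0.25 (SE 0.17) for *mt-Co2*, 0.17 (SE 0.10) for *mt-Co3*, 0.39 (SE 0.20) for *mt-Atp6* and 0.67 (SE 0.47) for *mt-Atp8*, with adjusted p from 0.626 to 0.675. Their median was 0.28, whereas the median of the 42 nuclear-encoded members tested was −0.03, with 32 of them lower and 10 higher in KO. Of all 13312 genes tested, 7708 were lower and 5604 higher, also with a median of −0.03. With median-ratio scaling, the median of the nuclear-encoded members was 0.0007. Since genes of the mtDNA are transcribed together and share each library, the 6 are not independent of each other. The 7 mtDNA-encoded subunits of complex I, which are not members, also all had higher means in KO, with a median of 0.28. WT replicate 1 was the highest WT library for all 13 mtDNA-encoded protein genes, and for 12 of the 13 all KO values lay above WT replicates 2 and 3. That split sets WT replicate 1 aside after the values were seen, and fewer samples make such a separation easier. No share over all genes is given for it. Without WT replicate 1, the median of the 6 members was 0.45, and *mt-Atp6* alone among them was called, with a log2 fold change of 0.63 and an adjusted p of 0.0126. The median of the 6 was 0.16 without WT replicate 2 and 0.18 without KO replicate 3, and 0.31 with median-ratio scaling. The summed plasma cell markers given above had the same order in part, with WT replicate 1 the highest WT library and all KO values above WT replicates 2 and 3. Within that list *Prdm1* was at 40.0, 17.1 and 16.7 FPKM in WT and 41.4, 29.2 and 55.9 FPKM in KO, and *Sdc1* at 4.67, 3.80 and 3.19 FPKM in WT and 2.68, 3.67 and 4.01 FPKM in KO. Their part in the values of the mtDNA-encoded members was not tested.

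**Figure D4:**
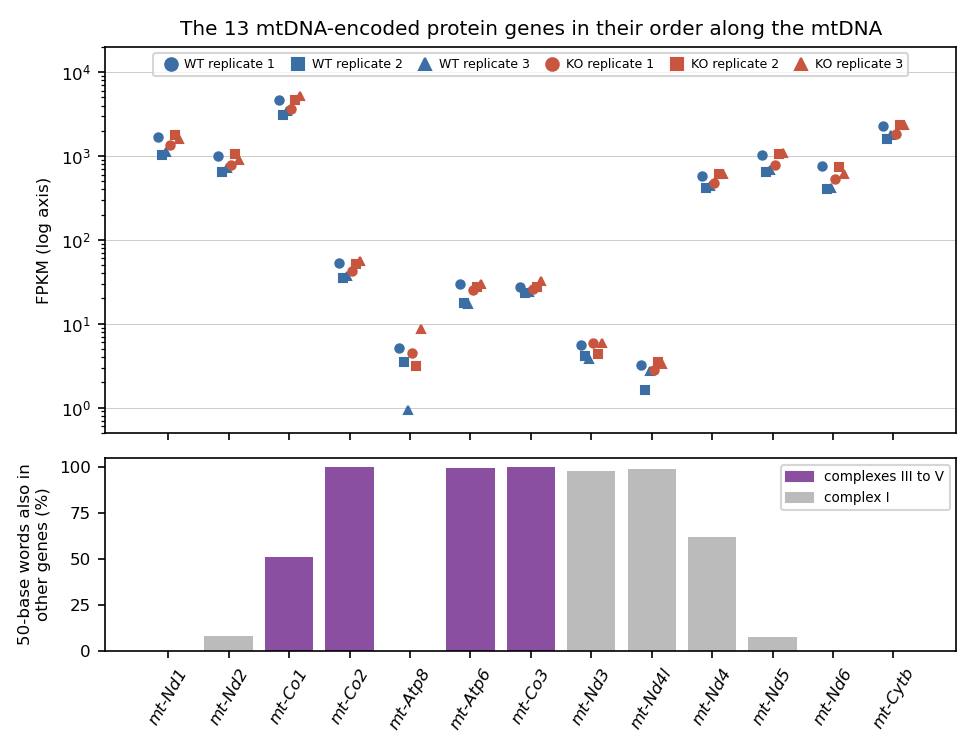
The 13 mtDNA-encoded protein genes in their order along the mtDNA (x axis), with FPKM in each library above (log scale, WT in blue, KO in red) and below the share of 50-base words of each gene that also occur in other annotated genes (purple for the 6 members, grey for complex I). The neighbouring genes from *mt-Co2* to *mt-Nd4l* sit between 0.944 and 55.5 FPKM, and all others at 402 FPKM or more.

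The levels of the mtDNA-encoded members fell into separate ranges. *mt-Co1* and *mt-Cytb* together made up 98.3% to 98.5% of the FPKM of the 6 members, and the mean of *mt-Co3* was 26.8 FPKM and that of *mt-Atp6* 24.5 FPKM. The genes with low values are neighbours on the mtDNA and have copies in the nuclear genome, on chromosomes 1 and 2 (mm10). In the annotation, 100% of the 50-base words of *mt-Co2*, 99.9% of those of *mt-Co3* and 99.5% of those of *mt-Atp6* also occur in other genes, against 51.1% for *mt-Co1* and 0% for *mt-Cytb*. *mt-Atp8* was low too, with 0%, although no annotated copy covers it and the search used annotated transcripts alone. Over their aligned 681, 783 and 678 bases, *mt-Co2*, *mt-Co3* and *mt-Atp6* had 0 differences from the pseudogenes *Gm28661*, *Gm28437* and *Gm10925* on chromosome 1. *Gm10925* was itself listed at 36.4 to 57.1 FPKM, above *mt-Atp6* in all 6 libraries, and *Gm28437* at 19.5 to 31.5 FPKM, below *mt-Co3* in all 6. How reads were divided between these genes was not tested.

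Over 672 aligned bases, *mt-Co2* and *Gm13341* differ at 16. A stretch of *mt-Co2* is shown that was chosen for its many differences from *Gm13341*, so it is not typical of how alike these 2 are. It is chrM:7483-7602 (plus strand, exon of *mt-Co2*), the matching part of *Gm13341* is chr2:22587385-22587504 (minus strand), and capitals mark the 6 bases at which *Gm13341* differs. The matching part of *Gm28661*, chr1:24614976-24615095 on the minus strand, is the same as *mt-Co2* in all 120 bases.
*mt-Co2*: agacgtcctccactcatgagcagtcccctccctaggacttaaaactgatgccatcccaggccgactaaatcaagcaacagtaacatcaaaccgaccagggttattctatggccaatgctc
*Gm13341*: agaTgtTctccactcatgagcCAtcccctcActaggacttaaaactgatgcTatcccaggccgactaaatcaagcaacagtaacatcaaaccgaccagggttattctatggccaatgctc
A read of this stretch fits *mt-Co2* and *Gm28661* equally well. *Gm28661* was at 19.2 to 28.4 FPKM and *Gm13341* at 0.840 to 1.495 FPKM. How reads with several alignments were counted is not given in the sources used here, so the levels of *mt-Co2*, *mt-Co3* and *mt-Atp6* are uncertain. The level of *mt-Co1*, with 51.1% of its words shared, is uncertain in part. The same holds for nuclear-encoded members such as *Atp5l* (84.8%), *Cox7c* (53.0%) and *Atp5o* (50.3%). *mt-Cytb*, which has no word in common with another annotated gene, gave the same direction as the other mtDNA-encoded members. Leaving out every member with 10% or more of shared words left 28 members, of which 0 were called, with a median log2 fold change of −0.02.

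Summed over all members, the FPKM of nuclear-encoded subunits hardly varied and those of mtDNA-encoded subunits varied more. The nuclear-encoded members summed to 8986, 9069 and 9300.0 FPKM in WT and to 8869, 8621 and 9025 FPKM in KO. The mtDNA-encoded members summed to 7006, 4729 and 5282 FPKM in WT and to 5598, 7153 and 7660.1 FPKM in KO. The mtDNA-encoded share was thus 43.8%, 34.3% and 36.2% in WT and 38.7%, 45.3% and 45.9% in KO, a difference of 5.21 percentage points between the means, with overlapping groups. It was 8.07 points without WT replicate 1 and 3.30 points without WT replicate 2, so that single libraries moved it by more than 1.5 times. All members together took 1.90% to 2.19% of the FPKM of all genes.

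**Figure D5:**
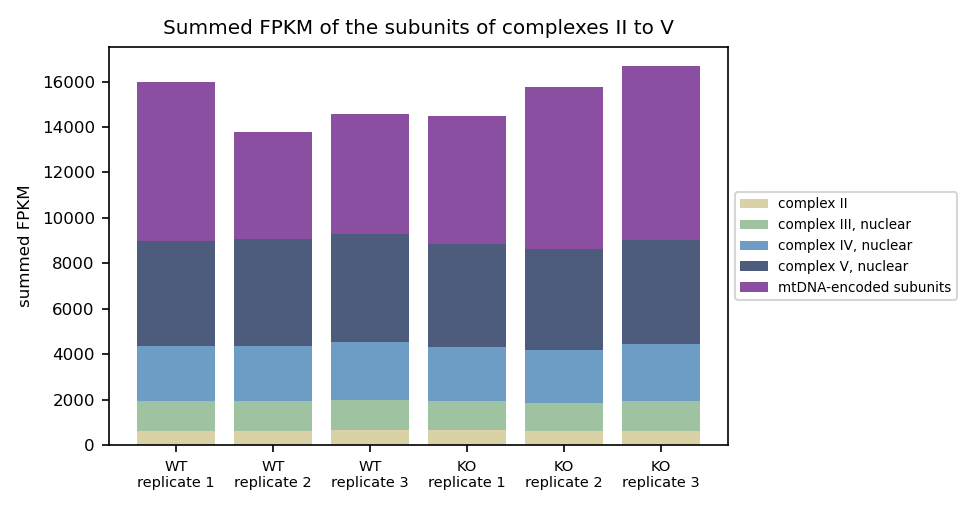
Summed FPKM (y axis, from 0) of the members in each library, stacked by complex for nuclear-encoded subunits and with the mtDNA-encoded subunits on top. The nuclear-encoded part is between 8621 and 9300.0 FPKM in all 6 libraries, and the mtDNA-encoded part is lowest in WT replicates 2 and 3, at 4729 and 5282 FPKM.

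With WT replicate 1 left out, 4 members were called (*Cox6a2*, *Cox6b2*, *Uqcrq* and *mt-Atp6*), 3 with lower and 1 with higher values in KO, against 9.4% of all genes under the same fit. Over all alternatives, the adjusted p ranged from 0.00483 to 1 for *Cox6b2*, from 0.0225 to 1 for *Uqcrq* and from 0.0126 to 1 for *mt-Atp6*. The shares of members and of all genes called were thus 4 of 48 and 1251 of 13312. The 10 nuclear-encoded members of complex IV left after *Cox6a2*, *Cox6b2* and *Cox7a1* had mean levels from 79.5 to 442 FPKM, and none of them was called with or without that library.

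Genes that build or regulate the complexes were also not called. Of 38 assembly factors listed, 35 were tested, with 16 higher and 19 lower in KO, and *Bcs1l* alone, which inserts the Rieske protein into complex III, had an unadjusted p under 0.05, with 12.8, 13.5 and 14.3 FPKM in WT and 11.2, 11.7 and 11.3 FPKM in KO (log2 fold change −0.23, SE 0.07, adjusted p = 0.626). Among 7 electron carriers and regulators tested, 3 were higher and 4 lower. *Cox7a2l*, *Higd1a* and *Lonp1* had an unadjusted p under 0.05 in limma, and their groups did not overlap. Of all genes tested, 6.98% had such a p and 10.1% had groups without overlap. *Cycs*, the cytochrome c, was at 42.1 to 44.3 FPKM in WT and 40.2 to 43.7 FPKM in KO. *Cox7a2l*, known as a supercomplex factor, was at 265, 248 and 253 FPKM in WT and 284, 302 and 326 FPKM in KO, all above WT. Its log2 fold change was 0.25 (SE 0.07, unadjusted p = 0.0102, adjusted p = 0.626), and whether its protein joins complexes in these mice was not tested. *Higd1a*, a small membrane protein bound to complex IV, was at 18.7 to 22.1 FPKM in WT and 16.6 to 17.6 FPKM in KO (log2 fold change −0.24, adjusted p = 0.626). *Lonp1*, the matrix protease known to be induced by HIF-1α, was at 29.0, 33.1 and 35.3 FPKM in WT and 28.0, 27.8 and 26.5 FPKM in KO (log2 fold change −0.23, adjusted p = 0.626). *Ndufa4*, a subunit of complex IV by structure that the symbol rule does not take, was at 224 to 233 FPKM in WT and 230.3 to 237 FPKM in KO, and *Ndufa4l2*, its HIF-1α-induced paralog, was under 0.250 FPKM in every library and was not tested.

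Of the 13 genes of mitochondrial gene expression, 4 were higher and 9 lower, and none had an unadjusted p under 0.05. *Tfam*, which packages and transcribes the mtDNA, was at 43.2, 45.7 and 47.4 FPKM in WT and 41.8, 44.0 and 44.5 FPKM in KO. Of 8 nuclear regulators tested, 1 was higher and 7 were lower, and *Pprc1*, a coactivator of nuclear genes for mitochondria, and *Myc*, a transcription factor of growth genes, had an unadjusted p under 0.05, with log2 fold changes of −0.28 (SE 0.11) and −0.43 (SE 0.18) and adjusted p = 0.626 for both. *Myc* was at 32.4, 49.2 and 51.7 FPKM in WT and 30.8, 29.9 and 35.8 FPKM in KO, again with WT replicate 1 within the KO range. *Ppargc1b* was at 1.97 to 2.73 FPKM in WT and 1.68 to 1.97 FPKM in KO, and *Ppargc1a* was at 0.551 FPKM or less and was not tested. Without WT replicate 1, 9.4% of all genes tested were called, 766 with lower and 485 with higher values in KO. Under the same fit, of the 35, 7, 13 and 8 genes tested in these lists, 5 were called, all with lower values in KO. These were *Cox18* (adjusted p = 0.0412), *Higd1a* (0.0453), *Lonp1* (0.0381), *Pprc1* (0.0187) and *Myc* (0.0150), whereas *Cox7a2l* (0.0679) and *Bcs1l* (0.0608) were not called. *Cox18*, an assembly factor that inserts the COX2 protein into the inner membrane, was at 9.63, 14.9 and 15.2 FPKM in WT and 11.9, 11.7 and 10.5 FPKM in KO, and is named for its call without that library.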

How the data were processed

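Bulk RNA-seq values of 6 libraries (3 WT, 3 *Hif1a* KO) were used, grouped by the sample labels. The authors mapped clean read pairs with TopHat (mm10, Bowtie index), took gene counts from HTSeq and deposited FPKM values, 1 column per library. The annotation release, strand setting and treatment of reads with several alignments are not given in the sources used here. Symbols came from GENCODE vM21 (GRCm38), which held 46488 of 46983 gene IDs.

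Reads were recovered from the deposited FPKM as whole multiples of what 1 read is worth, which gave 25030210 to 37222477 reads per library. About 95% of low values were whole (94.85% to 95.28%, tolerance 0.02). In the shallowest library, 1 read on 1 kb is 0.04 FPKM. The recovered gene length was within 1 base of the mean transcript length for 34 of the 48 members with at least 30 reads.

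KO was compared with WT in limma 3.58.1 (R 4.3.3; lmFit, eBayes with trend, no covariates) on log2(FPKM + 1), for the 13312 genes whose mean reached 0.5 FPKM, with Benjamini-Hochberg adjustment over all of them and calls at 0.05. The fit was tested on simulated data. Exact 50-base words of each member's principal transcript were searched in all annotated transcripts of other genes on both strands. Python 3.11.15, pandas 2.3.3, Biopython 1.88 and matplotlib 3.10.9 were used. Promoters came from RefSeq.

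Members, lists of pathway genes and markers were chosen with earlier results of these data known. Named genes were the mtDNA-encoded members, members with an unadjusted p under 0.05, the 2 highest members and the largest and lowest log2 fold change of each complex, the *Sdh* genes, the isoform families, core subunits, *Hif1a*, and pathway genes chosen by symbol or with an unadjusted p under 0.05. Alternatives were a pseudocount of 0.1, no filter, a filter at a mean of 5 FPKM, quantile and median-ratio scaling, mtDNA-encoded genes left out of the total, voom on recovered reads, a replicate block and each library left out in turn. Leaving out members with shared words was chosen after seeing the data. The study's other assays were not analysed here.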

Additional observations from a re-analysis of the deposited data

How the results depend on the processing

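No member was called with all libraries, so there was no call to lose, and 19 of the 48 members tested changed sign under at least 1 of the 15 alternatives. Of 174 summary values, 156 stayed close to the reported ones. Median-ratio scaling moved the median log2 fold change to 0.0093 for all members, 0.0229 for complex II and 0.00065 for nuclear-encoded members, and gave 5 members without overlap between groups in place of 3. A mean FPKM of at least 5, which drops *Cox6a2*, and voom on recovered reads each gave 1 member with an unadjusted p under 0.05 in place of 2. Leaving out 1 library at a time gave 0 to 1251 genes called (1251 without WT replicate 1, 1 without KO replicate 1 and 0 otherwise), 0 to 4 members called, 1 to 13 members with an unadjusted p under 0.05 and 3 to 23 members without overlap, where fewer samples make that easier, and a median log2 fold change of −0.0671 to −0.0064 for complex IV. Under these alternatives, no share over all genes is given for the counts by unadjusted p or by overlap. Those counts therefore cannot be set against a background. The cause of the changes without WT replicate 1 was not tested. Of 669 values of single members, 45 changed sign by less than their error and 4 were newly called, all 4 without WT replicate 1.

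Whether the replicate numbers pair the samples is not given by the labels. Deviations of same-numbered WT and KO libraries correlated at −0.099, 0.139 and −0.276, and those of libraries with different numbers at −0.2 to 0.304. With 3 libraries a group, these correlations cannot settle whether the samples were paired. With a replicate block, 0 genes and 0 members were called, and 2 members had an unadjusted p under 0.05. The voom fit gives no FPKM and thus no mtDNA-encoded share. At these depths, *Cox6a2*, *Cox7a1* and *mt-Atp8* rest on few reads and the other tested members on at least 133.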

Other observations

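Nuclear pseudogenes of nuclear-encoded members carried FPKM of their own. Gm10039, a processed pseudogene that holds 7.2% of the 50-base words of the *Atp5g1* transcript, was at 58.8, 73.3 and 88.9 FPKM in WT and at 66.0, 66.3 and 60.5 FPKM in KO, above *Atp5g1* in every library. Gm12231, with 23.2% of the words of *Atp5f1*, was at 5.53 to 6.48 FPKM in WT and 5.03 to 5.64 FPKM in KO. Which reads these values rest on was not tested.

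Exons of some members overlap exons of genes on the opposite strand. The largest overlaps with an expressed neighbour were 397 bases of *Atp5j* with *Gabpa*, whose mean was 54.9 FPKM, 337 bases of *Atp5f1* with Wdr77 at 12.9 FPKM and 250 bases of *Cox6c* with Vps13b at 8.46 FPKM. *Cox6a2* overlaps Itgad by 70 bases, and Itgad had a mean of 0.027 FPKM. Reads in these overlaps cannot be assigned without strand.

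By library, KO replicate 2 held the lowest value for 21 of the 42 nuclear-encoded members tested and the highest for 0, and WT replicate 3 the highest for 15 and the lowest for 0. These counts were noticed in the data and not tested. They were not made over all genes tested, so a shift of a whole library cannot be told from a trait of these subunits.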
